A study of Marchantia polymorpha with 9 samples.

Results

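Scaffold 70 of the liverwort Marchantia polymorpha carries a dense array of genes for the entry into phenolic metabolism, and this account describes every gene of that scaffold in plants that overexpress MpBHLH12. Members were all genes whose identifier begins with Mapoly0070s, taken in number order, which gave 100 genes of the 19287 in the expression table, numbered from 1 to 100 with no gap. The numbers 60 to 72 hold 13 genes, of which 7 are annotated in the study's pathway list as polyketide/chalcone synthase and 4 as phenylalanine ammonia lyase (PAL). The remaining pair, Mapoly0070s0066 and Mapoly0070s0069, is not in that list and is given by identifier alone. A further polyketide/chalcone synthase gene, Mapoly0070s0036, lies outside the array on the same scaffold. No annotation was used for the other 86 genes, and no chromosome coordinates, exons or introns were used here.

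RNA was sequenced from 3-week-old thalli of the overexpressors MpBHLH12ox#2 and MpBHLH12ox#3 and of the wild-type male strain Tak-1, with 3 biological replicates per group in the labels. Both lines are independent transformants of Tak-1 that express Citrine fused to MpBHLH12 from the constitutive 35S promoter, and the labels call the same gene MpGL3. Tak-1 was not transformed, so an effect of transformation and an effect of MpBHLH12 cannot be told apart in these groups. The labels name 9 pieces of thallus of about 5 mm as the material collected, without saying whether for each sample or for each group, from plants grown without treatment under continuous light. The study's methods give 9 pieces for each MpBHLH12ox line and do not state the number for a replicate. The labelled tissue was not checked against markers, because the table pairs no identifier with a gene name.

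PAL removes ammonia from phenylalanine to give cinnamic acid, the first step of the phenylpropanoid pathway. Chalcone synthase joins a coumaroyl-CoA starter with malonyl-CoA units into the chalcone from which flavonoids are made, and it belongs to a larger family of plant polyketide synthases. In liverworts, related polyketide synthases also supply the skeleton of bibenzyl compounds such as marchantin. Both families have many copies in M. polymorpha, so the level listed for each copy was used to describe which genes supply the transcript.

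The values are FPKM (fragments per kilobase of gene, scaled to the number of fragments mapped in the library), deposited as 1 average per group. They carry no replicate spread and the depth of the libraries is unknown, so no SD, interval or p-value is given, and every difference below describes these averages only. Since FPKM is scaled by gene length, levels of different copies can be set side by side. Changes are given as the difference of log2(FPKM + 1) between a line and Tak-1, which understates the change of genes with low FPKM, and as the plain ratio of FPKM where a fold is named. A gene met the size rule when this difference reached 1 in both lines with the same sign. Both lines were set against the same Tak-1 average, so their differences share any error in it. The introduced gene, MpBHLH12 (Mapoly0031s0161), had 548 FPKM in MpBHLH12ox#2 and 475 FPKM in MpBHLH12ox#3, against 20.3 FPKM in Tak-1, and fragments of the introduced copy can count there too. Because RNA came from whole pieces of thallus, more cells expressing a gene and more RNA per cell cannot be told apart in any of these values.

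The genes of scaffold 70 with the highest mean FPKM and the largest differences from Tak-1 were polyketide/chalcone synthase copies, although not all 8 copies were high or differed by much. On scaffold 70, 5 genes of the 100 met the size rule, all 5 with higher values in the lines, and each was a polyketide/chalcone synthase: Mapoly0070s0036, Mapoly0070s0060, Mapoly0070s0062, Mapoly0070s0063 and Mapoly0070s0064. Over all 19287 genes the rule was met upward by 1.08%, downward by 1.05% and in either direction by 2.13%, and among the genes that reached 1 FPKM in at least 1 group it was met upward by 1.56%. On the scaffold it was met by 5 of the 8 polyketide/chalcone synthase copies (62.5%), by none of the 4 PAL copies and by none of the other 88 genes. A replicate test of these counts was not possible with averages, and the 8 copies are members of a single family that may share fragments. The sources used here do not say how fragments matching several copies were counted, so the split of a level between near-identical copies is uncertain.

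**Figure D1:**
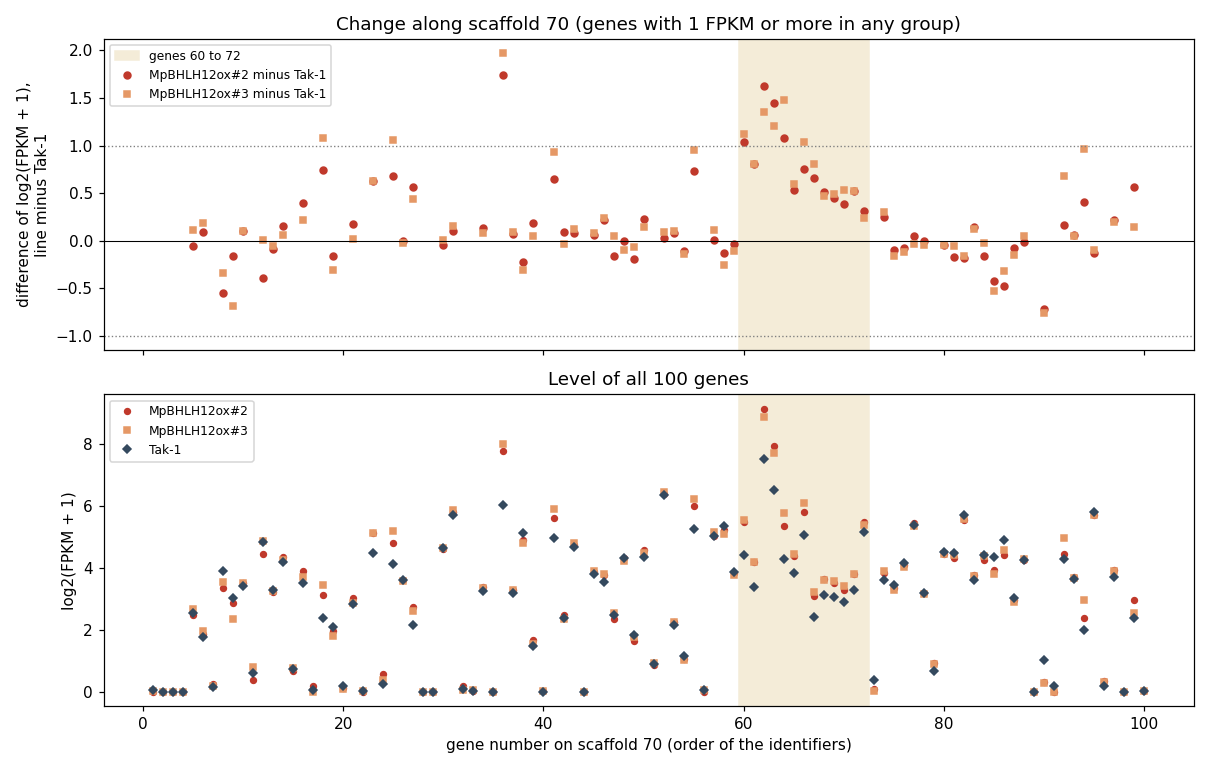
Upper panel, difference of log2(FPKM + 1) between each MpBHLH12ox line and Tak-1 (vertical axis) for the 73 genes of scaffold 70 that reached 1 FPKM in at least 1 group, by gene number (horizontal axis). Lower panel, log2(FPKM + 1) of all 100 genes in the 3 groups. Points are the authors' group averages, the shaded band marks numbers 60 to 72, and dotted lines mark the size of 1. All points inside the band lie above 0, and number 36 stands apart on the left with 1.74 and 1.97.

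The most abundant transcript of the scaffold was that of Mapoly0070s0062. It had 557 FPKM in MpBHLH12ox#2 and 462 FPKM in MpBHLH12ox#3, against 180.4 FPKM in Tak-1, which is 3.09-fold and 2.56-fold the Tak-1 level. Ordered by FPKM among all genes of the table, it held place 173 in MpBHLH12ox#2, place 207 in MpBHLH12ox#3 and place 536 in Tak-1. Its numerical neighbour Mapoly0070s0063 was next within the array, with 244 FPKM in MpBHLH12ox#2, 207 FPKM in MpBHLH12ox#3 and 88.8 FPKM in Tak-1. The log2 differences were 1.62 and 1.35 for Mapoly0070s0062 and 1.45 and 1.21 for Mapoly0070s0063, larger in MpBHLH12ox#2 than in MpBHLH12ox#3 for both genes.

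Mapoly0070s0036, the copy outside the array, showed the largest difference of any gene on the scaffold. It had 216 FPKM in MpBHLH12ox#2 and 254 FPKM in MpBHLH12ox#3, against 63.9 FPKM in Tak-1, or 3.38-fold and 3.97-fold. Of the numbers next to it, Mapoly0070s0035 was listed at 0 in all 3 groups and allows no comparison. Mapoly0070s0037 was near its Tak-1 level, with 8.68 FPKM in MpBHLH12ox#2, 8.80 FPKM in MpBHLH12ox#3 and 8.18 FPKM in Tak-1.

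Copies of middle level made up the rest of the genes that met the size rule. Mapoly0070s0064 had 39.8 FPKM in MpBHLH12ox#2 and 52.9 FPKM in MpBHLH12ox#3, against 18.4 FPKM in Tak-1 (log2 differences of 1.08 and 1.48). Mapoly0070s0060, the first gene of the array, had 43.1 FPKM in MpBHLH12ox#2 and 45.5 FPKM in MpBHLH12ox#3, against 20.4 FPKM in Tak-1 (1.04 and 1.12). Their Tak-1 levels were a small part of that of Mapoly0070s0062. In MpBHLH12ox#2 the folds were 2.17 for Mapoly0070s0064 and 2.11 for Mapoly0070s0060, below the 3.09 of Mapoly0070s0062. In MpBHLH12ox#3 they were 2.89 and 2.23, on either side of its 2.56. Mapoly0070s0064 and Mapoly0070s0060 were close to the threshold of 1 in MpBHLH12ox#2, and both lost their call with a pseudocount of 5.

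The 3 copies toward the far end of the array were lower in level or in change. Mapoly0070s0072, the last gene, had 43.0 FPKM in MpBHLH12ox#2 and 40.7 FPKM in MpBHLH12ox#3, against 34.4 FPKM in Tak-1. Its log2 differences of 0.32 and 0.24 were the smallest of the array although its Tak-1 level exceeded that of Mapoly0070s0060 and Mapoly0070s0064. Mapoly0070s0067 had 7.44 and 8.34 FPKM in MpBHLH12ox#2 and MpBHLH12ox#3, against 4.34 FPKM in Tak-1, with log2 differences of 0.66 and 0.81. Mapoly0070s0070 had 8.64 and 9.63 FPKM in MpBHLH12ox#2 and MpBHLH12ox#3, against 6.35 FPKM in Tak-1, with 0.39 and 0.53. The copies of this scaffold thus spanned a wide range, the highest being 74.9 times the lowest in MpBHLH12ox#2, 55.5 times in MpBHLH12ox#3 and 41.6 times in Tak-1.

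**Figure D2:**
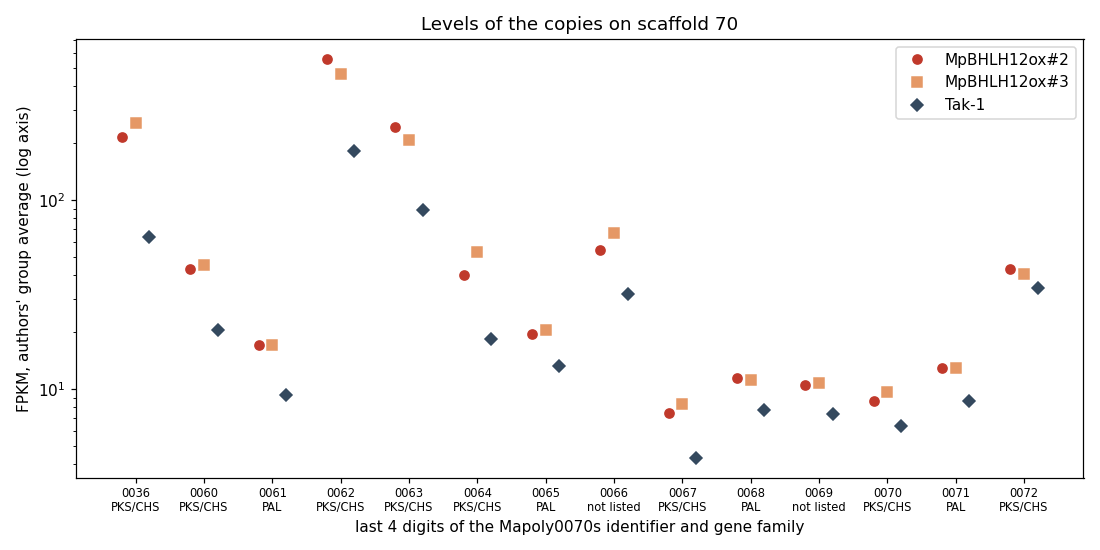
FPKM on a log axis (vertical) of the 13 genes numbered 60 to 72 and of Mapoly0070s0036 (horizontal, with PKS/CHS for polyketide/chalcone synthase), as the authors' average of MpBHLH12ox#2, MpBHLH12ox#3 and Tak-1. Both lines lie above Tak-1 for each of the 14 genes, and the gap is narrowest at Mapoly0070s0072, with 43.0 and 40.7 FPKM in the lines and 34.4 FPKM in Tak-1.

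The PAL copies of the array were all expressed at modest and similar levels, and all 4 were higher in both lines. Mapoly0070s0065 had the highest level, 19.5 FPKM in MpBHLH12ox#2 and 20.5 FPKM in MpBHLH12ox#3, against 13.2 FPKM in Tak-1. Mapoly0070s0061, which lies between copies that met the size rule, had 17.1 FPKM in both lines, against 9.34 FPKM in Tak-1. Its log2 difference of 0.81 in both lines was the largest of the 4, a ratio of 1.83 in each.

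The other PAL copies were closer to Tak-1. Mapoly0070s0071 had 12.9 FPKM in both lines, against 8.68 FPKM in Tak-1, and Mapoly0070s0068 had 11.4 FPKM in MpBHLH12ox#2 and 11.1 FPKM in MpBHLH12ox#3, against 7.73 FPKM in Tak-1. The highest PAL copy was 1.71 times the lowest in MpBHLH12ox#2, 1.84 times in MpBHLH12ox#3 and 1.70 times in Tak-1, and the order of the 4 copies was the same in each group. Each PAL copy differed by at most 0.07 on the log2 scale between the lines, against up to 0.40 among the polyketide/chalcone synthase copies. With a size of 0.5 in place of 1, 3 of the 4 PAL copies were past it in both lines. Upward differences of that size were found in 4.33% of all genes and in 6.16% of those that reached 1 FPKM in at least 1 group.

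The unlisted genes within the array followed the same direction. Mapoly0070s0066 had 54.6 FPKM in MpBHLH12ox#2 and 66.7 FPKM in MpBHLH12ox#3, against 31.9 FPKM in Tak-1, so its log2 difference passed 1 in MpBHLH12ox#3 (1.04) and not in MpBHLH12ox#2 (0.76). Mapoly0070s0069 had 10.5 and 10.8 FPKM in MpBHLH12ox#2 and MpBHLH12ox#3, against 7.39 FPKM in Tak-1 (0.45 and 0.49). By mean FPKM over the groups Mapoly0070s0066 was the highest gene of the array after Mapoly0070s0062 and Mapoly0070s0063, and no function is assigned to it here.

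Taking the array as a whole, the larger differences lay at its lower numbers. Numbers 60 to 64 had a median log2 difference of 1.28 (mean of the lines), with values from 0.81 to 1.49, whereas numbers 65 to 72 had a median of 0.51, with values from 0.28 to 0.90. The 5 genes of the first stretch summed to 901 FPKM in MpBHLH12ox#2 and 785 FPKM in MpBHLH12ox#3, against 317 FPKM in Tak-1. The 8 genes of the second summed to 168 FPKM in MpBHLH12ox#2 and 181 FPKM in MpBHLH12ox#3, against 114 FPKM in Tak-1. The split at number 64 was chosen after the values were seen and is a description.

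The edges of the array were sharp on its lower side. Mapoly0070s0059, the number before it, had 13.2 FPKM in MpBHLH12ox#2 and 12.5 FPKM in MpBHLH12ox#3, against 13.6 FPKM in Tak-1, while Mapoly0070s0060 beside it was 2.11-fold and 2.23-fold its Tak-1 level. On the upper side Mapoly0070s0073 was under 1 FPKM in every group, with 0.059 and 0.0082 FPKM in MpBHLH12ox#2 and MpBHLH12ox#3 and 0.300 FPKM in Tak-1. Mapoly0070s0074 followed with 13.3 FPKM in MpBHLH12ox#2 and 13.8 FPKM in MpBHLH12ox#3, against 11.1 FPKM in Tak-1, a log2 difference (0.25 and 0.30) near that of Mapoly0070s0072. Leaving out genes under 1 FPKM in every group, numbers 60 to 74 formed an unbroken run of 14 genes above Tak-1 in both lines, and the next longest run on the scaffold held 4 genes, from number 31 to 37. Over all genes that reached 1 FPKM in at least 1 group, 41.5% were above and 40.2% below Tak-1 in both lines. Runs on other scaffolds were not computed. Most genes of the run of 14 are synthase or PAL copies, which may share fragments within a family.

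The same 5 synthase copies had the largest log2 differences in both lines, with a different order after Mapoly0070s0036. In MpBHLH12ox#3, 9 of the 13 genes of the array had a higher FPKM than in MpBHLH12ox#2, and 4 a lower one. The log2 difference of MpBHLH12ox#3 minus MpBHLH12ox#2 was -0.27 for Mapoly0070s0062 and -0.24 for Mapoly0070s0063, and it was 0.40 for Mapoly0070s0064, 0.28 for Mapoly0070s0066 and 0.23 for Mapoly0070s0036. For comparison, MpBHLH12 itself differed by -0.21 between the lines, and the median size of this difference was 0.09 over all genes at 1 FPKM or above. Whether these gaps between the lines exceed replicate error was not tested.

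By these averages few copies supplied most of the transcript, although the split between near-identical copies is uncertain. The 8 polyketide/chalcone synthase copies summed to 1159 FPKM in MpBHLH12ox#2 and 1079.95 FPKM in MpBHLH12ox#3, against 417 FPKM in Tak-1, which is 2.78-fold and 2.59-fold. Mapoly0070s0062 alone held 48.1% of this sum in MpBHLH12ox#2, 42.8% in MpBHLH12ox#3 and 43.3% in Tak-1. Mapoly0070s0062, Mapoly0070s0063 and Mapoly0070s0036 together held 87.7%, 85.4% and 79.9% of the sum in MpBHLH12ox#2, MpBHLH12ox#3 and Tak-1. The share of Mapoly0070s0072 was 3.71% in MpBHLH12ox#2 and 3.77% in MpBHLH12ox#3, against 8.24% in Tak-1. The order of the leading copies was not fixed, since Mapoly0070s0036 lay below Mapoly0070s0063 in MpBHLH12ox#2 and Tak-1 but above it in MpBHLH12ox#3.

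The PAL copies shared their sum more evenly. They summed to 61.0 FPKM in MpBHLH12ox#2 and 61.7 FPKM in MpBHLH12ox#3, against 38.9 FPKM in Tak-1, or 1.57-fold and 1.58-fold. Mapoly0070s0065 held 32.0% in MpBHLH12ox#2, 33.2% in MpBHLH12ox#3 and 33.8% in Tak-1, and the lowest copy, Mapoly0070s0068, held 18.8%, 18.1% and 19.9% in the same groups. The array and Mapoly0070s0036 together carried 54.5% of the summed FPKM of scaffold 70 in MpBHLH12ox#2 and 52.1% in MpBHLH12ox#3, against 32.7% in Tak-1.

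**Figure D3:**
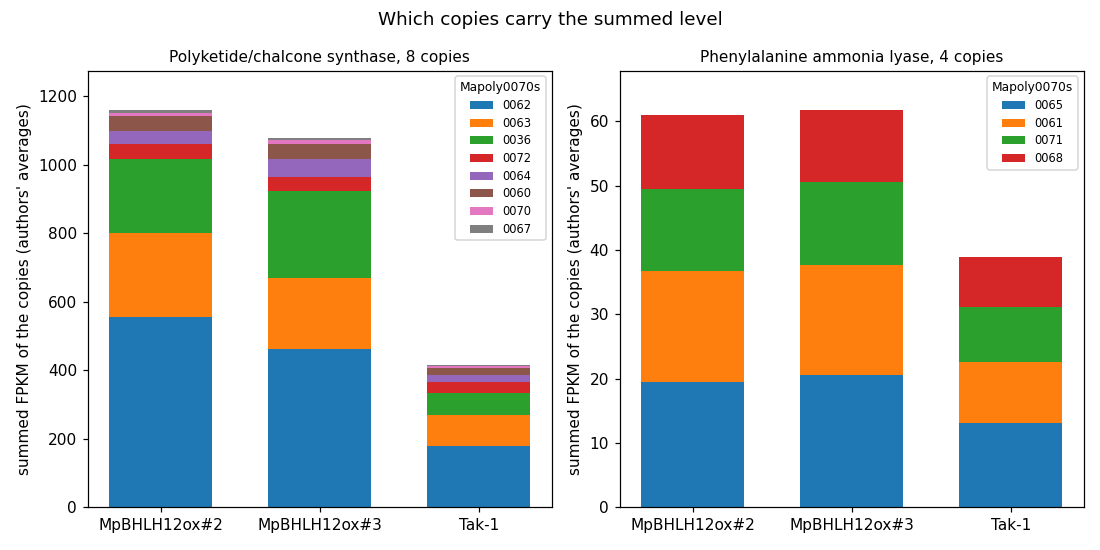
Stacked FPKM (vertical axis, from 0) of the 8 polyketide/chalcone synthase copies (left) and the 4 PAL copies (right) of scaffold 70 in MpBHLH12ox#2, MpBHLH12ox#3 and Tak-1, as the authors' averages, with a colour for each copy. The synthase bars reach 1159, 1079.95 and 417 FPKM with Mapoly0070s0062 the largest block in each, and the PAL bars reach 61.0, 61.7 and 38.9 FPKM with blocks of similar size. The vertical axes of the panels differ in scale.

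Against the other genes of these families in the study's list, the synthase copies of scaffold 70 were the major part of the family and the PAL copies were not. The list holds 24 polyketide/chalcone synthase genes, and the 8 of scaffold 70 gave 74.4% of their summed FPKM in MpBHLH12ox#2 and 70.1% in MpBHLH12ox#3, against 52.7% in Tak-1. The 16 on other scaffolds summed to 398 FPKM in MpBHLH12ox#2 and 460.0 FPKM in MpBHLH12ox#3, against 374 FPKM in Tak-1. None of the 16 met the size rule, and only 11 of them reached 1 FPKM in at least 1 group. The upward background was 1.08% of all genes and 1.56% of genes that reached this level. With so few genes, finding none is what such a background would give. At a size of 0.5 in both lines, 3 of the 11 (27.3%) were past it upward and none downward. The same size was passed upward by 6.16% of all genes at this level and by 6 of the 8 copies of scaffold 70. The highest of the 16 on other scaffolds, Mapoly0021s0159, had 114 FPKM in MpBHLH12ox#2 and 105 FPKM in MpBHLH12ox#3, against 123 FPKM in Tak-1. In both lines this gene was below Mapoly0070s0063 and Mapoly0070s0036, and in Tak-1 it was above them. The largest mean log2 differences elsewhere were 0.98 for Mapoly0072s0061 and 0.94 for Mapoly0072s0054, both of scaffold 72, which passed 1 in MpBHLH12ox#3 (1.14 for each) and not in MpBHLH12ox#2 (0.82 and 0.74). Their levels were below those of the leading copies of scaffold 70, at 60.3 FPKM in MpBHLH12ox#2 and 75.6 FPKM in MpBHLH12ox#3, against 33.7 FPKM in Tak-1, for Mapoly0072s0061.

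For PAL, the 4 copies of scaffold 70 gave 17.0% of the summed FPKM of the 10 listed genes in MpBHLH12ox#2 and 16.6% in MpBHLH12ox#3, against 17.1% in Tak-1. The leading PAL gene by mean level was Mapoly0132s0049, with 155 FPKM in MpBHLH12ox#2 and 161 FPKM in MpBHLH12ox#3, against 53.6 FPKM in Tak-1. In Tak-1 alone Mapoly0005s0089 was higher, at 75.6 FPKM, with 85.2 FPKM in MpBHLH12ox#2 and 85.0 FPKM in MpBHLH12ox#3. Mapoly0132s0049, with log2 differences of 1.51 and 1.57, was the PAL gene that met the size rule. Each of its differences exceeded those of every PAL copy on scaffold 70. The share of the scaffold 70 copies was therefore nearly the same in the 3 groups although each of them was higher in the lines.

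**Figure D4:**
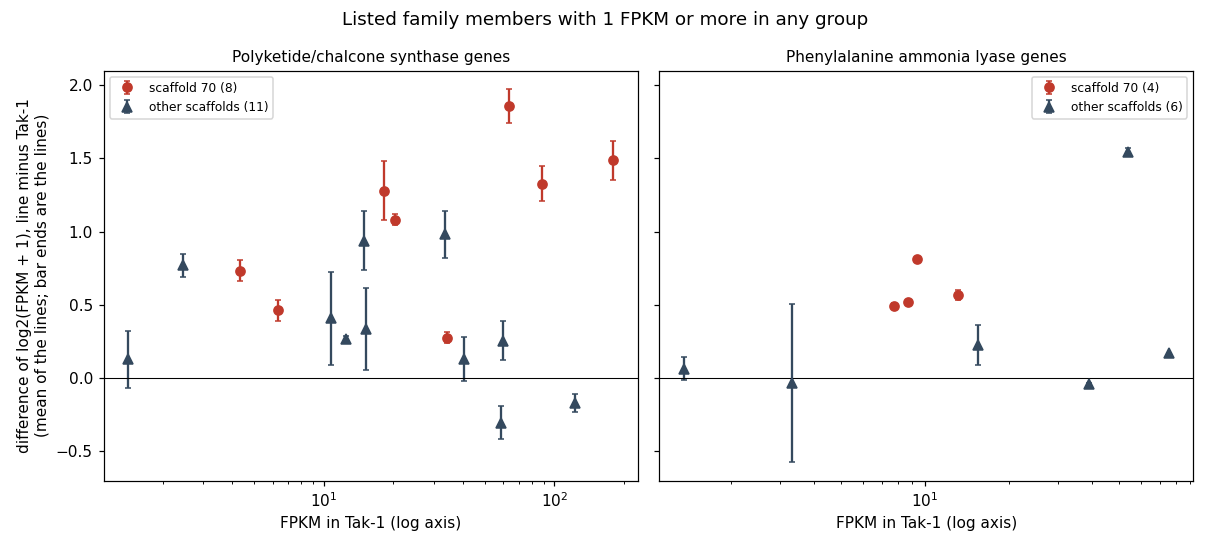
Mean over both lines of the difference of log2(FPKM + 1), line minus Tak-1 (vertical axis), against FPKM in Tak-1 (horizontal, log axis) for listed polyketide/chalcone synthase (left) and PAL genes (right) that reached 1 FPKM in at least 1 group. Circles are scaffold 70 and triangles other scaffolds, and bar ends are the values of the lines, not an error. The 8 synthase copies of scaffold 70 lie between 0.28 and 1.86, those elsewhere between -0.30 and 0.98, and the highest PAL point, at 1.54, is Mapoly0132s0049.

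Scaffolds 9 and 44 also hold PAL beside polyketide/chalcone synthase genes and were the most similar places in the list. On scaffold 9 the PAL gene Mapoly0009s0173 was low, with 1.34 FPKM in MpBHLH12ox#2 and 1.60 FPKM in MpBHLH12ox#3, against 1.36 FPKM in Tak-1. Its 4 synthase neighbours Mapoly0009s0174, Mapoly0009s0178, Mapoly0009s0179 and Mapoly0009s0180 had mean log2 differences from 0.13 to 0.33, below those of 7 of the 8 copies of scaffold 70. On scaffold 44, the PAL gene Mapoly0044s0114 had log2 differences of opposite sign (-0.57 and 0.50) and the synthase gene Mapoly0044s0115 of 0.69 and 0.85, at 4.58 FPKM in MpBHLH12ox#2 and 5.21 FPKM in MpBHLH12ox#3, against 2.46 FPKM in Tak-1. The median log2 difference was 0.73 for the 13 genes of the array on scaffold 70, 0.13 for these 5 genes of scaffold 9 and 0.37 for the pair on scaffold 44. On scaffold 72, which holds no listed PAL gene, the 3 listed synthase genes had a median of 0.94. That was above the 0.73 of the array and below the 1.08 of the 7 synthase genes within it. These are descriptions of averages and the differences between scaffolds were not tested.

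The rest of the pathway list gives the setting. Cinnamate 4-hydroxylase acts on the product of PAL, and its 3 genes were all above Tak-1 in both lines, as were 41.5% of all genes at 1 FPKM or above. The leading one, Mapoly0163s0018, had 335 FPKM in MpBHLH12ox#2 and 342 FPKM in MpBHLH12ox#3, against 198 FPKM in Tak-1, with log2 differences of 0.76 and 0.79. Of the 48 listed genes that are neither PAL nor polyketide/chalcone synthase, 4 met the size rule upward (8.33%) and 1 downward (2.08%), against 1.08% and 1.05% of all genes. The median over the 45 that reached 1 FPKM in at least 1 group was 0.18.

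The other 86 genes of scaffold 70 were mostly near their Tak-1 level. In 27 of them FPKM was under 1 in every group, and 9 of these were listed at 0 in all 3 groups. The 59 genes above this level had a median log2 difference of 0.03 (mean of the lines), against 0.0053 over all genes at that level. Of the 59, 29 were above and 23 below Tak-1 in both lines, and 39 lay within 0.25 of Tak-1 in both lines. None met the size rule. At a size of 0.5 there were 5 upward (8.47% of the 59) and 1 downward (1.69%), against 6.16% and 5.07% of all genes at that level, and 4.33% and 3.69% of all genes in the table.

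Among these 86 genes, Mapoly0070s0018 had the largest mean increase, with 7.65 FPKM in MpBHLH12ox#2 and 9.89 FPKM in MpBHLH12ox#3, against 4.15 FPKM in Tak-1. Mapoly0070s0025 came next, with 27.0 FPKM in MpBHLH12ox#2 and 35.4 FPKM in MpBHLH12ox#3, against 16.5 FPKM in Tak-1. For both genes the log2 difference passed 1 in MpBHLH12ox#3 (1.08 and 1.05) and stayed under it in MpBHLH12ox#2 (0.75 and 0.68). Mapoly0070s0055, 5 numbers before the array, had 62.2 FPKM in MpBHLH12ox#2 and 72.6 FPKM in MpBHLH12ox#3, against 36.9 FPKM in Tak-1 (0.74 and 0.96). It was separated from the array by Mapoly0070s0057, Mapoly0070s0058 and Mapoly0070s0059, whose log2 differences lay between -0.26 and 0.11, and by Mapoly0070s0056, under 1 FPKM in every group.

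Lower values were fewer and smaller. Mapoly0070s0090 had 0.247 FPKM in MpBHLH12ox#2 and 0.216 FPKM in MpBHLH12ox#3, against 1.05 FPKM in Tak-1, and the pseudocount holds its log2 difference to -0.72 and -0.75. Mapoly0070s0085 had 14.0 FPKM in MpBHLH12ox#2 and 13.0 FPKM in MpBHLH12ox#3, against 19.1 FPKM in Tak-1 (-0.42 and -0.52). Mapoly0070s0008 had 9.11 FPKM in MpBHLH12ox#2 and 10.7 FPKM in MpBHLH12ox#3, against 13.8 FPKM in Tak-1 (-0.55 and -0.34).

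Of the 5 most abundant among these 86 genes, all but Mapoly0070s0055 were near their Tak-1 level. Mapoly0070s0052, the highest of the 86, had 81.9 FPKM in MpBHLH12ox#2 and 85.4 FPKM in MpBHLH12ox#3, against 80.3 FPKM in Tak-1. Mapoly0070s0031, Mapoly0070s0095 and Mapoly0070s0082 had log2 differences between -0.18 and 0.15. In Tak-1 the level of Mapoly0070s0052 lay between those of Mapoly0070s0063 and Mapoly0070s0036, whereas in both lines Mapoly0070s0036 and Mapoly0070s0063 both stood well above it. The 86 genes together summed to 1073 FPKM in MpBHLH12ox#2 and 1122 FPKM in MpBHLH12ox#3, against 1021 FPKM in Tak-1.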

How the data were processed

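Reads had been aligned to JGI genome version 3.1 by Bowtie2 and assigned to genes by HTSeq, per the study's methods, and the submitters' processing notes also name Cuffdiff 2.2.1. FPKM values were deposited as averages, 1 for each of the 3 groups, over 19287 genes. The program that computed them and any filter are not given. Without replicate values, depth and replicate error are unknown and no test across replicates was made here. The study reports its own calls of differential expression, made with edgeR, and these were not used here. Among them is Mapoly0072s0061, reported as up-regulated, which did not meet the size rule.

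The members and lists were chosen with earlier results of these data known. Family names came from the study's pathway list of 82 genes, all in the table. No identifier was found in the RefSeq gene table of MpTak2_v7.1 (0 matches). Differences of log2(FPKM + 1) were computed from the averages, with medians over genes that reached 1 FPKM in at least 1 group, and a size of 1 in both lines took the place of a test. Named genes were numbers 60 to 72 and 36, on the rest of the scaffold the 5 highest by mean FPKM and the 3 largest mean increases and decreases, MpBHLH12, the leading PAL and synthase genes elsewhere and those of scaffolds 9 and 44. Neighbours of these genes, Mapoly0163s0018, genes of scaffold 72 and genes named for a count were added after their values were seen. Alternatives were pseudocounts of 0.1 and 5, sizes of 0.5 and 2, filters, the mean of the lines and rescaling to a common median. The size rule was run on simulated averages whose planted changes were larger than its threshold. That run checked the computation only, not replicate error or genes near the threshold. Python 3.11.15, numpy 2.4.6, pandas 2.3.3 and matplotlib 3.10.9 were used.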

Additional observations from a re-analysis of the deposited data

How the results depend on the processing

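No paired analysis was possible because only averages over the replicates of a group were deposited. Leaving out replicates and a replicate block were not run for the same reason. Moves of log2 differences were judged against the SD of the values of the lines, and moves of shares against the SD over all groups. Neither is a replicate error. Counts were judged by the ratio of the larger count to the smaller.

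The 5 genes of scaffold 70 past the size rule numbered 8 with a pseudocount of 0.1, with 3 downward genes of low level added (Mapoly0070s0073, Mapoly0070s0090 and Mapoly0070s0091), 3 with a pseudocount of 5, 16 at a size of 0.5 and 0 at a size of 2. For numbers 60 to 72 the count of 4 became 2, 9 and 0 with the pseudocount of 5 and these sizes. The median log2 difference of the array, 0.73, was 0.85 and 0.46 with pseudocounts of 0.1 and 5, that of the synthase copies, 1.18, was 1.04 with 5, and that of the PAL copies, 0.54, was 0.58 and 0.42. The median of the rest, 0.03, was 0.0000 without a filter and 0.0555 at a mean of 5 FPKM or more. Within the array alone Mapoly0070s0062 held 56.5% of the synthase sum instead of 45.2%, by construction, since Mapoly0070s0036 is left out. Another 28 values recomputed under the alternatives stayed within these limits, but many of them could hardly move. The filters dropped none of the array, synthase or PAL genes, and the PAL copies all lie within the array. Rescaling removed median log2 ratios of only 0.0016 in MpBHLH12ox#2 and 0.0021 in MpBHLH12ox#3. None of the medians changed sign in an alternative run, nor did the value of Mapoly0070s0036. Effects of library depth could not be examined on averages.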

Other observations

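Set beside other scaffolds, scaffold 70 was among those with the most genes of higher level in the lines. Of 161 scaffolds with 20 or more genes at 1 FPKM or more in any group, 7 held 5 genes that met the size rule upward, scaffold 70 among them, and none held more. By the share of its genes, 5.00% against 1.08% of all genes, scaffold 70 was exceeded by 3 scaffolds. At a size of 0.5 the share was 15.0%, with 15 genes, against 4.33% of all genes, and 1 scaffold was higher. Of these 15 genes, 9 were in the array, 1 was Mapoly0070s0036 and 5 were on the rest of the scaffold. The median log2 difference of scaffold 70, 0.10 over expressed genes, was exceeded on 4 scaffolds. Without the array and Mapoly0070s0036 the median was 0.03. These places were computed after the values were seen, and scaffolds differ in their number of genes.

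Scaffold 70 summed to 2358 FPKM in MpBHLH12ox#2 and 2341 FPKM in MpBHLH12ox#3, against 1516 FPKM in Tak-1. The array and Mapoly0070s0036 made up 93.8% of the excess over Tak-1 in MpBHLH12ox#2 and 87.8% in MpBHLH12ox#3.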
